A study of Mus musculus with 24 samples.

Results

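The transcripts examined here are the messenger RNAs that mitochondria make from their own DNA, measured in 24 RNA-seq libraries of liver from C3H/HeJ mice. Of the 13 mitochondrial protein genes in the deposited table of 35974 gene symbols, 7 had a value of at least 1 in at least 4 of the 24 libraries and are the members described: ND1, ND2, ND4, ND5 and ND6 of complex I, CYTB of complex III and COX1 of complex IV. Among the 13 they were chosen by their deposited values over all libraries, a rule that made no use of the groups. Each passed in 19 to 24 libraries. The members were nonetheless taken up with earlier results of these data known, so their choice was not independent of the group comparisons. The other 6 were ND3 and ND4L of complex I, COX2 and COX3 of complex IV, and ATP6 and ATP8 of the ATP synthase. All of these but ND3 were listed at 0 in 24 of 24 libraries. ND3 was listed at 0 in 23, with a log2 value of 4.14 in WT number 2 of class 4.

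The 6 groups, of 4 libraries each, combine genotype, transgenic (TGA) or wild type (WT), with a suffix of 2, 4 or 8 in the titles, called class here. The labels define neither the suffix nor the transgene. The series title concerns polyploid hepatocytes, liver parenchymal cells with extra sets of chromosomes, so classes were compared with each other, TGA with WT, and the class difference in TGA with that in WT. Promoter, age, sex and treatment do not appear in the sources used here. Nothing in the labels says that the libraries of a group come from separate animals, so p-values measure only how libraries of a group vary, and that variation may be technical. The RNA kit named in the labels' protocols is one made for fixed tissue in paraffin.

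The respiratory chain of the inner mitochondrial membrane passes electrons from NADH and succinate to oxygen and pumps protons, and the ATP synthase uses the proton gradient. Most subunits come from nuclear genes, and a few core ones from the mitochondrial DNA, whose heavy and light strands are each transcribed as long precursors that are cut into single RNAs. A cell holds many copies of this DNA, and in liver, an organ rich in mitochondria, its transcripts are usually among the most abundant. ND6 is the protein gene transcribed from the other strand than the rest.

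The 6 genes left out lie together. In their order on the mitochondrial genome the 13 genes run ND1, ND2, COX1, COX2, ATP8, ATP6, COX3, ND3, ND4L, ND4, ND5, ND6 and CYTB, so that the unbroken run from COX2 to ND4L held the 6, with COX1 and ND4 on its flanks. Nuclear genomes carry copies of mitochondrial DNA, and each gene was therefore searched for windows of 75 bases, the read length in the labels, that also occur without mismatch in another transcript of the GENCODE M21 annotation (GRCm38, reference strain C57BL/6J). Such windows made up 99.5% of COX2, 99.5% of ATP6, 99.9% of COX3, 97.8% of ND3 and 98.7% of ND4L, but 0% of the 130 windows of ATP8. On the flanks they made up 39.8% of COX1 and 61.5% of ND4, and elsewhere 0% of ND1, ND6 and CYTB, 1.66% of ND5 and 5.71% of ND2. COX1 and ND4 were listed at 0 in 4 libraries each and the other 5 members in 0 to 2.

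**Figure D1:**
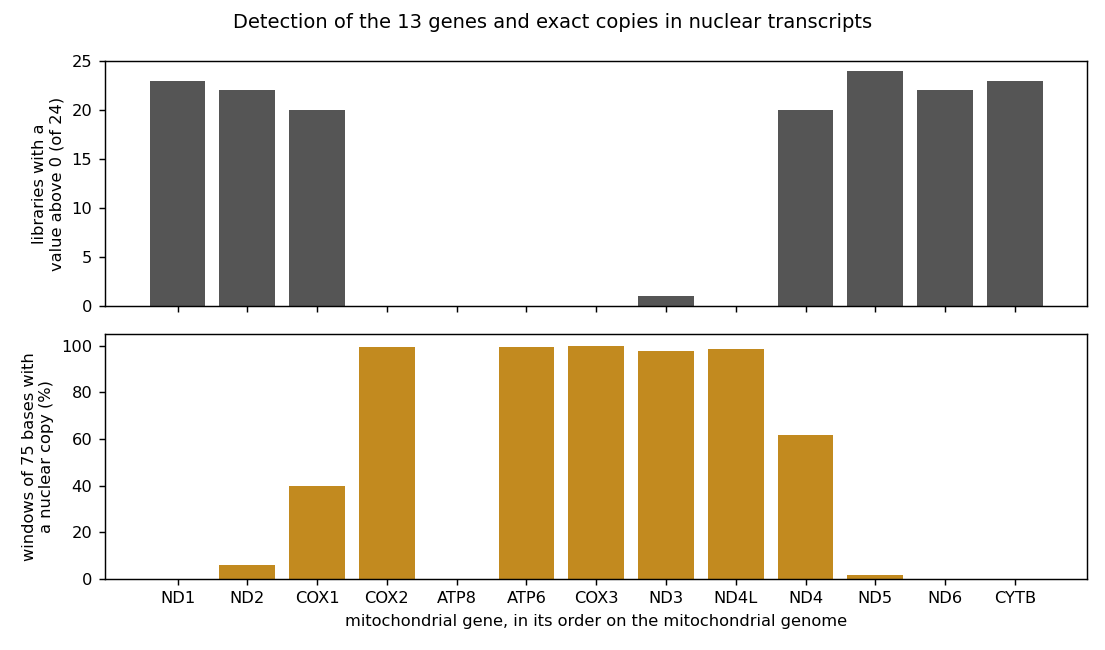
Number of the 24 libraries with a value above 0 (upper bars) and percent of 75-base windows with an exact copy in a nuclear transcript (lower bars) for the 13 mitochondrial protein genes, in genome order. The genes from COX2 to ND4L had values in 0 or 1 libraries. All of them but ATP8 had copies of at least 97.8% of their windows in annotated transcripts, the only nuclear sequence searched.

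Annotated nuclear copies of this run include the pseudogenes Gm29216, Gm28661, Gm10925, Gm28437, Gm28438, Gm10222 and Gm28439, which lie on chromosome 1 in the same order as COX1, COX2, ATP6, COX3, ND3, ND4L and ND4. On chromosome 2, Gm13340 shares 220 windows with COX1 and Gm13341 shares 138 with COX2. Of the 586 windows of COX1 with a copy, 405 occur in Gm29216. ATP8 has its place between COX2 and ATP6, and no window of it was found in a nuclear transcript. Nuclear sequence outside annotated transcripts was not searched, so a copy of ATP8 there could not be found. Of the 7 pseudogenes on chromosome 1, 5 had 0 differences from the mitochondrial gene over 294 (ND4L) to 876 (ND4) compared bases, and Gm29216 had 6 over 492 bases of COX1. Gm28438 differed from ND3 by T3C, counted from the first base of the coding sequence, the mitochondrial base first. The next 2 lines show this base in capitals.
ND3: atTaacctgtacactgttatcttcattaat
Gm28438: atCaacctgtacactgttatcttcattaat
On the flanks the chromosome 1 copies end inside the genes, while Gm13340 spans COX1 whole, at 97.6% identity. The stretch of ND4 at coding positions 847 to 906 has the last bases held by Gm28439 in capitals, and the stretch of COX1 at positions 1037 to 1096 has in capitals the first bases of its unbroken identity with Gm29216.
ND4: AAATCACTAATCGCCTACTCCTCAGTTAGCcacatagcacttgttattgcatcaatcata
COX1: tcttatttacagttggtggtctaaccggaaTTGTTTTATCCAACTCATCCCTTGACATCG
How reads that match both the mitochondrion and the nucleus were treated is not given in the sources used here, and their part in the values of 0 was not tested. Windows without a copy numbered 502 of 1304 in ND4 and 885 of 1471 in COX1.

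Neighbouring genes also share bases, which bears on ND5 and ND6 among the members. The last 14 bases of ND5 and of ND6 are the same stretch read from opposite strands, capitals below. ATP8 and ATP6 share 43 bases and ND4L and ND4 share 7.
ND5: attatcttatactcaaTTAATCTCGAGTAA
ND6: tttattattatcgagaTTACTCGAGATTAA
The sources used here do not say whether counting used strand. Without it, reads of ND6 and of RNA antisense to it cannot be told apart.

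Values are given as log2(normalised count + 1), a scale inferred from the deposited values, which look like natural logs of counts quantile-normalised across libraries. The fewest genes above 0 were 1624, in TGA number 2 of class 4, and the most 15147, in WT number 1 of class 2, with medians of 4328.5 genes in TGA and 5102 in WT class 2, 2650.5 in TGA and 3411 in WT class 4, and 2788.5 in TGA and 3175 in WT class 8. Of all values of the 4875 genes tested 54.1% were 0, also in genes that every cell uses, so a 0 does not show absence, and the sequencing depth is unknown. In bulk RNA, fewer cells of a type and less RNA per cell cannot be told apart.

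The highest value of each of the 7 mitochondrial transcripts lay in a class 4 library. For all of them but CYTB this was the same library, WT number 3, and for CYTB it was TGA number 3. All 7 members were among the 100 highest genes of the library in 0 of the 8 libraries of class 2, 7 of those of class 4 and 2 of those of class 8. The members' share of the summed normalised counts was 1.95%, 0.244%, 4.88% and 2.13% in TGA class 4 (numbers 1 to 4) and 1.68%, 2.47%, 13.8% and 2.31% in WT class 4. In class 2 it was 0.382%, 0.170%, 0.369% and 0.419% in TGA and 0.728%, 0.163%, 0.904% and 0.457% in WT. All class 4 libraries but TGA number 2 therefore exceeded all class 2 libraries. That library had the fewest genes above 0, and WT number 3, with 13.8%, had 2145 genes above 0.

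**Figure D2:**
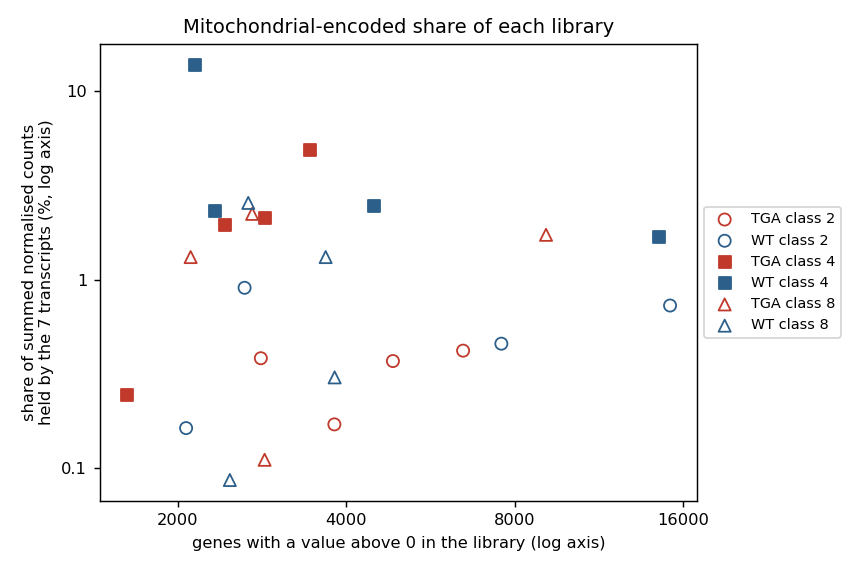
Share of summed normalised counts held by the 7 transcripts (vertical, log axis) against genes with a value above 0 (horizontal, log axis), 1 point per library. Of the 8 class 4 libraries (filled squares), 7 lie at 1.68% to 13.8% and TGA number 2 at 0.244%, while the 8 class 2 libraries (circles) lie at 0.163% to 0.904%.

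Complex I takes electrons from NADH, and ND1, ND2, ND4 and ND5 are core subunits of its membrane arm. ND1 had log2 values of 7.97, 0, 9.98 and 9.34 in TGA class 4 and 9.50, 9.47, 11.10 and 9.34 in WT class 4, against 7.20, 6.23, 7.90 and 7.09 in TGA class 2 and 7.95, 7.05, 4.99 and 6.73 in WT class 2. The WT groups did not overlap, and in TGA 3 class 4 libraries lay above all class 2 libraries while number 2 was listed at 0. ND2, a neighbour of ND1, had 9.13, 0, 10.25 and 9.35 in TGA class 4 and 9.51, 9.28, 11.05 and 9.69 in WT class 4, against 7.12, 6.93, 7.37 and 6.76 in TGA class 2 and 8.20, 4.97, 0 and 6.41 in WT class 2. Its pattern was that of ND1, with no overlap in WT and TGA number 2 of class 4 at 0.

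ND4 was listed at 0 more often than these in class 2. Its log2 values were 9.03, 0, 9.86 and 8.88 in TGA class 4 and 8.53, 9.26, 11.73 and 9.12 in WT class 4, against 0, 4.16, 6.77 and 6.91 in TGA class 2 and 7.37, 0, 7.56 and 1.29 in WT class 2. Again all 4 WT class 4 libraries exceeded the WT class 2 libraries, and TGA number 2 of class 4 was at 0. ND5, of the far end of the proton-pumping arm, was the member with a value above 0 in all 24 libraries and the highest member in 16 of them. It had 11.51, 8.15, 12.32 and 11.35 in TGA class 4 and 10.06, 10.82, 13.71 and 9.66 in WT class 4, against 8.03, 6.58, 8.26 and 8.84 in TGA class 2 and 9.60, 8.06, 10.31 and 8.54 in WT class 2. The groups overlapped in both genotypes, through TGA number 2 and WT numbers 1 and 4 of class 4.

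ND6, the complex I subunit on the other strand, had log2 values of 9.12, 7.17, 9.75 and 9.89 in TGA class 4 and 9.91, 8.80, 13.27 and 9.53 in WT class 4, against 8.03, 6.42, 6.65 and 8.22 in TGA class 2 and 8.37, 0, 9.61 and 8.02 in WT class 2. Both genotypes overlapped. CYTB, the catalytic cytochrome b of complex III, had 8.19, 7.84, 11.81 and 8.65 in TGA class 4 and 9.69, 9.44, 9.53 and 9.89 in WT class 4, against 8.15, 6.34, 7.67 and 7.43 in TGA class 2 and 8.25, 6.33, 6.79 and 8.45 in WT class 2. In WT class 4 its 4 values averaged 9.64 ± 0.20 (SD, n = 4), above all WT class 2 values, and in TGA the groups overlapped. COX1, the catalytic subunit of complex IV that reduces oxygen, had 8.77, 4.44, 10.02 and 10.06 in TGA class 4 and 9.55, 9.45, 11.15 and 9.44 in WT class 4, against 7.11, 6.49, 6.70 and 6.89 in TGA class 2 and 7.70, 0, 7.31 and 6.84 in WT class 2. The WT groups did not overlap, and TGA number 2 of class 4 was the lowest TGA library of both classes.

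In WT, 5 of the 7 members (ND1, ND2, COX1, ND4 and CYTB) had all class 4 values above all class 2 values, which held for 0.39% of the 4875 genes tested. In TGA this held for 0 of the 7, against 1.07% of genes tested, and for both genotypes at once for 0 of the 7 and 0.0% of genes.

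**Figure D3:**
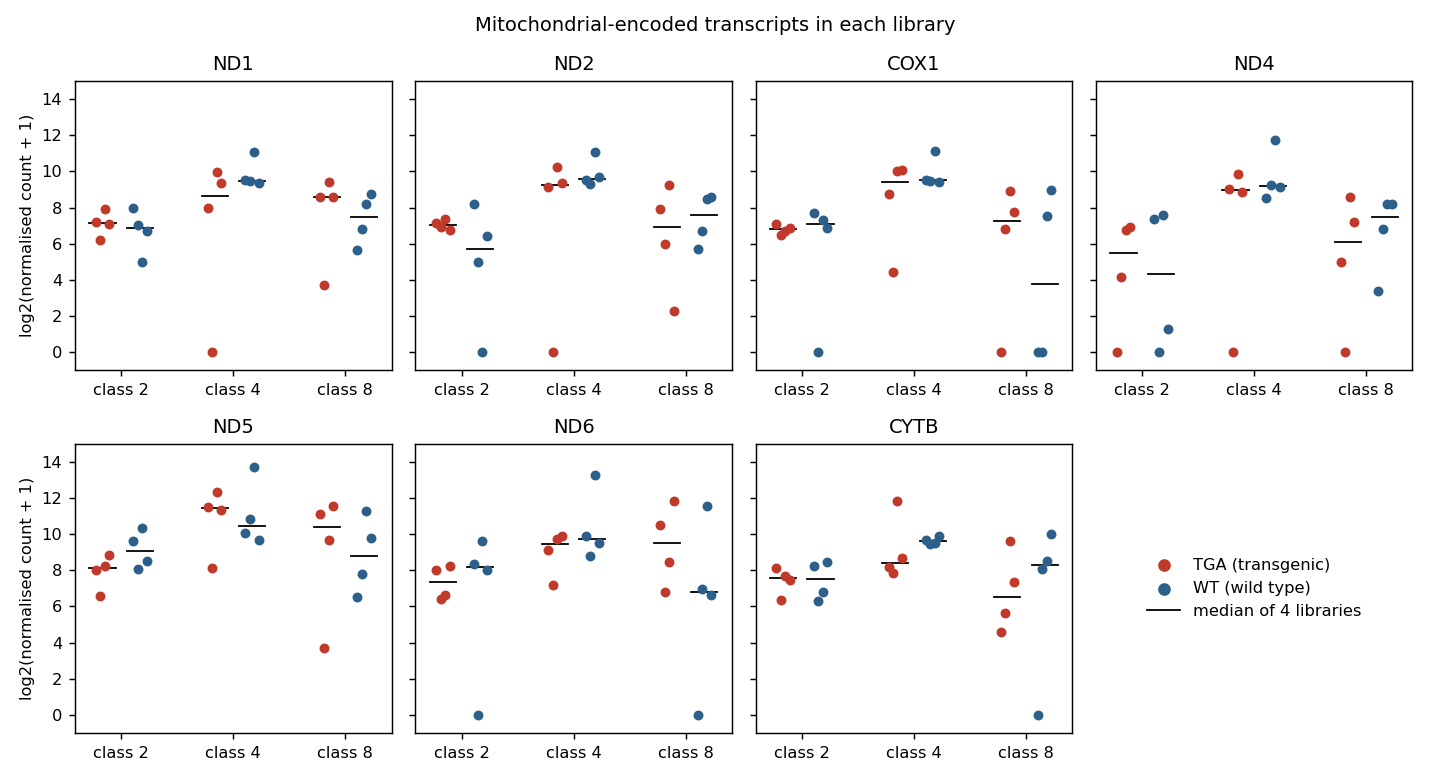
Log2(normalised count + 1) of each member in each of the 24 libraries, by class (horizontal), with TGA (red) left of WT (blue) and lines at the median of 4 libraries. WT class 4 values of ND1, ND2, COX1, ND4 and CYTB lie above all WT class 2 values, and TGA number 2 of class 4 is listed at 0 for ND1, ND2 and ND4.

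Fitted over both genotypes, class 4 minus class 2 was above 0 for 7 of 7 members, against 42.2% of genes tested. By percentile rank within each library, where a value of 0 was set to percentile 0, ND1 turned to -5.59 percentile points. ND1 was listed at 0 in TGA number 2 of class 4, and within WT its difference was 9.60 percentile points. The median log2 difference was 2.56 for the members and -0.23 for all genes tested. None of the members passed the threshold (limma, Benjamini-Hochberg over 4875 genes, adjusted p under 0.05), which 0.308% of genes did, all 15 of them lower in class 4, and 2 genes without TGA number 2 of class 4. ND4 differed by 4.04 (SE 1.34, adjusted p = 0.187), ND5 by 2.42 (SE 0.83, adjusted p = 0.195) and ND6 by 2.76 (SE 1.13, adjusted p = 0.282). COX1 differed by 2.98 (SE 1.25, adjusted p = 0.300), ND2 by 2.56 (SE 1.15, adjusted p = 0.319), CYTB by 1.95 (SE 0.97, adjusted p = 0.366) and ND1 by 1.44 (SE 1.01, adjusted p = 0.528). At an unadjusted p under 0.05, 6 of 7 were higher, against 3.14% of genes tested. The members were chosen with this difference already known, so their shared direction adds no independent evidence. Without TGA number 2 of class 4, a choice made after seeing the data, ND1 differed by 2.58 (adjusted p = 0.186) and ND4 by 5.20 (adjusted p = 0.0649).

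Within WT, class 4 minus class 2 had a median of 3.88 over the members and -0.05 over all genes tested, and was above 0 for 7 of 7, against 48.2% of genes. ND4 differed by 5.60 (SE 1.90), ND2 by 4.99 (SE 1.62) and COX1 by 4.43 (SE 1.77), with adjusted p from 0.924 to 0.999 for all members (limma), and 0.0% of all genes passed (1.7% were higher at an unadjusted p under 0.05). Within TGA the median was 1.65 over the members, led by ND5 at 2.90 (SE 1.17, adjusted p = 0.215), with ND1 at -0.28 (SE 1.43), and 6 of 7 were above 0, against 39.9% of genes. Here 0 of 7 members and 0.841% of genes passed, 41 genes, of which 1 was left without TGA number 2 of class 4. Without TGA number 2 of class 4, ND1 differed by 1.99 in TGA, so its direction turned without that library. The test of the class difference between genotypes, TGA minus WT, gave 0 of 7 members and 0.0% of genes past the threshold (limma, with ND2 lower at an unadjusted p of 0.0398). It was below 0 for 6 of 7, against 58.1% of genes. Its largest member value was -4.85 for ND2 (SE 2.29, adjusted p = 0.767), and -2.46 without that library.

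Class 8 libraries of 1 group differed widely. ND1 had 8.58, 3.73, 9.44 and 8.57 in TGA class 8 and 5.63, 6.79, 8.19 and 8.76 in WT class 8. ND5 had 11.10, 3.70, 9.65 and 11.58 in TGA class 8 and 6.52, 7.77, 11.26 and 9.80 in WT class 8. For ND5 both class 8 groups held a library below every class 2 library and 1 or more above every class 2 library. TGA number 2 and WT number 1 were the low libraries, with 0.110% and 0.0862% of summed counts in the 7 transcripts, while TGA number 4 and WT number 3 held 2.23% and 2.55%. ND6 reached 11.81 in TGA number 4 and 11.58 in WT number 3, where it was the highest member. COX1 was listed at 0 in 1 of 4 TGA and 2 of 4 WT class 8 libraries, and had 6.79, 8.92 and 7.73 in the other TGA and 7.53 and 8.96 in the other WT libraries.

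Class 8 minus class 4 was below 0 for 7 of 7 members, against 47.6% of genes tested. By rank within the library ND1 turned to 2.92 percentile points, with TGA number 2 of class 4 again at 0. The median was -2.02 for the members and 0.06 for all genes. COX1 differed by -4.12 (SE 1.25), CYTB by -2.66 (SE 0.97) and ND5 by -2.02 (SE 0.83), each with an adjusted p of 0.718 (limma), and the other 4 by -2.39 (ND4) to -0.88 (ND1). None of the 4875 genes passed (0.0%, limma; 3.69% were higher at an unadjusted p under 0.05), and at an unadjusted p under 0.05, 3 of 7 members were lower, against 2.89% of genes. This comparison shares the class 4 libraries with the preceding ones. In WT, ND1, ND2, COX1 and ND4 had no overlap between class 4 and class 8, against 0.308% of genes tested, and in TGA 0 of 7 did, against 0.226%. Class 8 minus class 2 had both signs among the members, above 0 for 5 of 7 against 43.9% of genes, from 1.66 (ND4, SE 1.34) to -1.14 (COX1, SE 1.25). Its adjusted p for members was 0.844 to 0.950, with 0 of 7 members and 0.0205% of genes past the threshold.

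**Figure D4:**
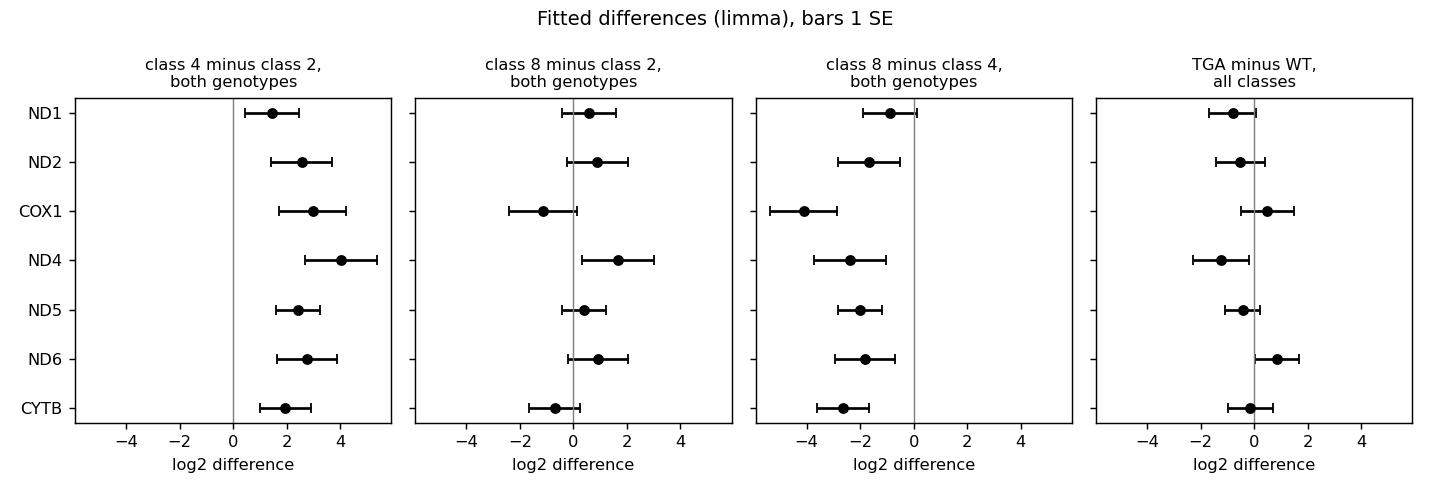
Fitted log2 differences of the 7 members (limma), with bars of 1 SE, for the 3 class comparisons over both genotypes and for TGA minus WT over all classes. The members lie at 1.44 to 4.04 in class 4 minus class 2 and at -4.12 to -0.88 in class 8 minus class 4, and on both sides of 0 in the other 2 panels.

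For TGA minus WT the 3 classes of each number were averaged first, giving 4 means against 4. ND6 differed by 0.85 (SE 0.83, adjusted p = 0.741) and COX1 by 0.50 (SE 0.98, adjusted p = 0.885). The other members differed by -0.13 (CYTB) to -1.25 (ND4, SE 1.05, adjusted p = 0.697). None of the 7 passed (limma), against 0.492% of genes tested, and 2 of 7 had differences above 0, against 54.7%. Without the 3 libraries of TGA number 2, ND1, ND2, ND4, ND5 and CYTB differed by 0.49, 0.34, 0.13, 0.62 and 0.25, the opposite direction from the fit to all libraries.

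Levels were compared between members per kilobase of coding length, on the log2 scale. Over the 24 libraries the medians ran from 9.36 for ND6 and 8.79 for ND5 through 8.02 for ND1, 7.97 for CYTB and 7.60 for ND2 to 6.82 for ND4 and 6.80 for COX1. ND6 exceeded ND5 in 18 of 24 libraries (median difference 1.06, SD of the difference 2.44), and ND2 exceeded ND4 in 20 of 24 (median difference 0.93, SD 2.99). No neighbours in this order differed by more than the SD of their difference across libraries, and ND1 exceeded CYTB in 12 and ND4 exceeded COX1 in 10 of 24 libraries. Counted per 1000 windows without a nuclear copy, ND4 moved to 8.27, between ND5 (8.88) and ND1 (8.14), and COX1 to 7.60, still the lowest. By group, ND6 exceeded ND5 per kilobase in 4 of 4 TGA and 3 of 4 WT libraries of class 2, 2 of 4 TGA and 3 of 4 WT of class 4, and 4 of 4 TGA and 2 of 4 WT of class 8.

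The members followed each other unevenly across libraries. Likeness was measured as the root mean square difference between log2 profiles over the 24 libraries, each centred on its own mean, and is a description with no test. ND1 and ND2, neighbours on the genome, were the closest pair at 1.73 and lay on the same side of their means in 23 of 24 libraries. ND2 and ND6 were the farthest pair, at 3.54. ND1, ND5 and CYTB were each nearer to the mean of the other 6 members than any other gene tested was, at 1.59, 1.60 and 1.78. ND6, ND4, ND2 and COX1 ranked 399, 648, 701 and 1027 by the same measure, at 2.235, 2.24, 2.411 and 2.397. A gene with no variation would lie at 2.18 from the mean of all 7 members. All of these members exceeded that value, though each was measured against the mean of the other 6. Among genes of the nucleus, Prickle1 (1.73), Prkrir (1.75), Rbl1 (1.76), Gm32656 (1.77) and Ifi203 (1.80) were nearest to the mean of the 7 members, but a gene with no variation at all would lie at 2.18. Their mean log2 values were 0.51 to 1.59, and they were listed at 0 in 7 to 18 libraries.

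Subunits that the nucleus encodes, pooled over all complexes, showed no common direction between class 4 and class 2. Of the 78 such genes listed, 13 were measured well enough to be tested. Class 4 minus class 2 was above 0 for 5 and below 0 for 8 of them, against 42.2% above 0 among all genes tested. Their median was -0.41, against -0.23 for all genes, and 0 passed the threshold in either direction (limma), against 0.308% of genes. The smallest p-values belonged to complex I subunits, Ndufb7 (-2.08, SE 0.64, adjusted p = 0.157), Ndufv3 (-2.66, SE 1.01, adjusted p = 0.250) and Ndufv1 (-2.32, SE 0.99, adjusted p = 0.309), each at 0 in 7 of 8 libraries of class 4, against 1 to 3 of 8 of class 2. Of complex I alone, 6 of 7 tested subunits were below 0 over both genotypes (median -1.32), against 57.8% of genes tested. Within TGA 6 of the 7 were below 0 (median -3.37, against -0.32 for all genes), and within WT 3 (median 0.43, against -0.05). Within TGA, Ndufb7 was listed at 0 in all 4 class 4 libraries, against log2 levels of 1.74 to 5.60 in class 2, and was past the threshold (adjusted p = 0.0442, limma), as were 0.841% of genes. It lost that call in 13 of 18 alternatives (adjusted p up to 0.168), among them leaving out TGA number 2 of class 4 (adjusted p = 0.0968). In TGA minus WT 12 of the 13 were above 0, against 54.7% of genes tested, with a median of 1.02, against 0.115 for all genes. Of the 13, 0 passed the threshold (limma), against 0.492% of genes. They were led by Atp5a1 of the ATP synthase (2.81, SE 1.02, adjusted p = 0.328).

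Genes that act on mitochondrial RNA and DNA were thinly measured. For class 4 minus class 2, 0 of 5 tested genes of mitochondrial RNA synthesis and processing passed, with Fastkd1, of a family that acts on mitochondrial RNA, at 1.89, Ptcd1, a mitochondrial RNA-binding protein, at -1.27 and Polrmt, the mitochondrial RNA polymerase, at -1.66 (adjusted p = 0.267, 0.327 and 0.422, limma). Of 3 genes of mitochondrial DNA replication 0 passed, with Top1mt, a mitochondrial topoisomerase, at -2.21, Polg, the mitochondrial DNA polymerase, at -2.16 and Peo1, the helicase Twinkle, at -0.27. None of 6 mitochondrial ribosomal protein genes passed (median -0.42), nor did any of 6 regulators of mitochondrial biogenesis (median -0.18). Cluh, which binds mRNAs of mitochondrial proteins, was at -3.04, Esrra, a nuclear receptor, at -1.83 and Ppara, a receptor that drives fatty acid oxidation, at 1.66 (adjusted p = 0.238, 0.479 and 0.479).

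Fitted differences of hepatocyte markers between class 4 and class 2 were all below 0 in TGA and on both sides of 0 in WT, with 0 of 8 past the threshold in the test of the difference between genotypes (limma). Over both genotypes all 8 tested had values below 0 for class 4 minus class 2, against 57.8% of genes (median -1.26, 0 past the threshold), with Cps1, which makes carbamoyl phosphate for the urea cycle, at -3.43 (SE 1.13, adjusted p = 0.187). Within TGA 8 of 8 were below 0 (median -1.93), against a median of -0.32 for all genes tested. Ttr, transthyretin, was listed at 0 in all 4 TGA class 4 libraries, against log2 levels of 4.72 to 7.79 in TGA class 2, and was past the threshold (adjusted p = 0.0479, limma), a call lost in 14 of 19 alternatives (adjusted p up to 0.359). Within WT 3 were above and 5 below 0, with a median of -0.07, against -0.05 for all genes tested. On the log2 scale their summed level was 11.72 to 14.45 in TGA and 9.98 to 14.46 in WT class 4, against 14.63 to 15.11 in TGA and 10.71 to 13.60 in WT class 2. Markers of other liver cells were low. The group medians of the summed endothelial, macrophage, stellate, cholangiocyte, lymphocyte and erythroid lists were at most 4.41 (stellate list, WT class 4), the highest library had 7.36 (endothelial list, WT class 8), and all 4 erythroid genes were listed at 0 in 24 of 24 libraries. For TGA minus WT, 4 of the 8 hepatocyte markers passed the threshold, against 0.492% of genes, Apoa1 at 3.71, Alb at 5.64, Cps1 at 4.66 and Trf, transferrin, at 1.61 (limma, adjusted p at most 0.0222). With no variance trend Apoa1, Alb and Trf lost the call (adjusted p = 0.0836, 0.0621 and 0.463, limma). By percentile rank they had adjusted p = 0.987, 0.125 and 0.997 (limma). Apoa1 and Trf, however, had log2 values of at least 7.87 and 9.53 in every library, where ranks leave little room to differ. Their differences were 1.03 and 0.26 percentile points, so for them the loss by rank says little. Cps1 lost it with no filter on low values (adjusted p = 0.110), and Trf in 8 of 19 alternatives, among them leaving out TGA number 4 (adjusted p = 0.237) or WT number 2, 3 or 4 (adjusted p = 0.102, 0.147 and 0.128). The part of the marker differences in the mitochondrial values was not tested. With a covariate for how many genes a library had above 0, the median of the members for class 4 minus class 2 was 3.01.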

How the data were processed

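Liver RNA of 24 libraries was sequenced as single-end reads of 75 bases. The deposited table holds 1 value per gene symbol and library, which the values themselves show to be the natural log of a quantile-normalised count plus 1, as 20 of 24 libraries share 1 highest value. TopHat, edgeR and build mm9 are named in the submitters' processing notes, with no role or order. The counting program, the annotation, the handling of reads with several matches and the use of strand remain not given in the sources used here. Summed normalised counts ran from 225700 in WT number 4 of class 4 to 338600 in TGA number 4 of class 8. The libraries therefore did not share 1 whole distribution, and shares of summed counts are shares of normalised values, not of reads. Depth, and thus counting intervals, cannot be had.

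Dividing by the natural log of 2 gave log2 values. The 4875 of 35974 genes that reached 1 on the deposited scale in 4 or more libraries were fitted with limma 3.58.1 (R 4.3.3, variance trend), each group with its own mean, and p-values were adjusted by Benjamini-Hochberg over all of them, with a threshold of 0.05. The fit was tested on simulated data with shifts larger than any member difference fitted here, so that test does not show its power at the observed sizes. TGA was compared with WT on 8 means, since libraries of 1 genotype and number may share an animal. Windows of 75 bases were matched to 141730 transcripts of GENCODE M21 (GRCm38), and sequences come from the same reference, which is not the build of the notes, so no coordinates are given. The members and lists were chosen with earlier results of these data known. Named genes are all members, the genes of each list that passed or else the 3 with the smallest p, and the 5 nearest genes by profile. Alternatives were other filters, a pseudocount of 8, centring, percentile ranks, a covariate for genes detected, array weights, no variance trend, a replicate block and leaving out libraries. Mitochondrial rRNA and tRNA were not analysed here.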

Additional observations from a re-analysis of the deposited data

Results flagged for a closer look

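In 48 groups of 4 libraries, 8 had 1 library far from the other 3 by Dixon's test of the gap over the range. Chance meets this rule in about 1 in 20 groups of independent, normally distributed values. The groups reuse the same 24 libraries and some flagged values are 0, so the count cannot be judged against that rate. WT number 3 of class 4 stood high with a log2 value of 11.1 for ND1, against 9.34 to 9.50 in the other WT class 4 libraries, and with 11.15 for COX1, against 9.44 to 9.55. It also held 13.8% of summed counts in the 7 transcripts, against 1.68% to 2.47%. TGA number 2 of class 4 stood low with 0 for ND2, against 9.13 to 10.25, and with 0 for ND4, against 8.88 to 9.86. WT number 2 of class 2 was at 0 for COX1, against 6.84 to 7.70, and at 0 for ND6, against 8.02 to 9.61. TGA number 2 of class 8 had 3.73 for ND1, against 8.57 to 9.44 in the other TGA class 8 libraries. These libraries had 1624 to 2860 genes above 0.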

How the results depend on the processing

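No member passed the threshold in any comparison under any of 19 alternatives (lowest adjusted p 0.0593). Of 931 member values 896 kept their direction and 35 reversed. Many of these could not reverse, so the count overstates how stable the directions were. The other filters, the replicate block and the fit without a variance trend leave the fitted member differences unchanged. Leaving out a number of 1 genotype cannot move a difference fitted within the other. For class 4 minus class 2 within TGA, ND1 reversed to 0.40 with a pseudocount of 8, 0.27 with centring, 0.31 with genes detected as a covariate and 1.99 without TGA number 2 of class 4 (chosen after seeing the data), and ND2 to -0.0198 with array weights. By percentile rank within the library, in percentile points, ND1 reversed to -5.59 and ND2 and COX1 within TGA to -21.1 and -10.1 (class 4 minus class 2), ND1, ND5 and ND6 to -2.67, -5.87 and -0.0787 (class 8 minus class 2), ND1 to 2.92 (class 8 minus class 4) and CYTB to 2.76 (TGA minus WT). These ranks set a value of 0 to percentile 0. The genotype difference of CYTB reversed to 0.0671 with the covariate. For TGA minus WT, ND5 and CYTB reversed to 0.0834 and 1.25 without libraries over 7000 genes, and ND2 to 0.0230 without TGA number 2 of class 4. In both settings some means cover fewer classes than others, so genotype is mixed with class. Without libraries over 7000 genes, WT number 1 kept only its class 8 library, where CYTB was listed at 0. The cause of the reversals was not tested.

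Leaving out 1 number of a genotype, class 8 minus class 2 ranged from -0.11 to 1.72 for ND2, -0.27 to 2.29 for ND6 and -1.13 to 0.53 for CYTB. Class 4 minus class 2 in TGA ranged from -1.13 to 1.70 for ND1 and -0.78 to 2.49 for ND2, and the genotype difference from -1.27 to 0.10 for CYTB. TGA minus WT ranged from -1.44 to 0.49 for ND1, -1.21 to 0.34 for ND2, -2.21 to 0.13 for ND4, -0.87 to 0.62 for ND5, -0.78 to 0.38 for CYTB and -0.62 to 1.22 for COX1. Genes called ranged from 1 to 20 (class 4 minus class 2), 0 to 1 (class 8 minus class 2), 0 to 2 (class 8 minus class 4), 0 to 1 (WT), 0 to 66 (TGA), 0 to 1 (genotype difference) and 10 to 95 (TGA minus WT).

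Genes called in class 4 minus class 2, 15 over both genotypes and 41 in TGA, became 0 and 0 with no filter, 5 and 4 with the pseudocount, 4 and 1 with centring, 3 and 1 with the covariate, 32 and 79 without libraries over 7000 genes, 31 and 99 with array weights, 2 and 3 by percentile and 2 and 1 without TGA number 2 of class 4. The stricter filter gave 36 over both genotypes. For class 8 minus class 2, 1 call became 0 with no filter, the covariate or percentiles, 3 with the stricter filter or array weights and 4 with no variance trend. Class 8 minus class 4 had 5 without libraries over 7000 genes, and the genotype difference 1 with centring. TGA minus WT, with 24, had 9 with no filter, 42 with the covariate, 5 with no variance trend and 11 by percentile. It had 84 without libraries over 7000 genes, where the means compared cover unequal sets of classes. Centring moved the median of all genes by 0.326 in class 4 minus class 2 and by 0.552 within TGA.

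Libraries of 1 genotype shared a number, and the deviations of 24 same-numbered pairs correlated with a median of 0.0325 (-0.0965 to 0.432, 2 over 0.1). Of 24 libraries 12 were closest to one of their own number, against 6 if all 8 candidates of a library, 2 of them with its number, were equally close. The labels state no shared source and not every pair was over 0.1, so the block was kept as an alternative, and whether same-numbered libraries share an animal is not known. With a replicate block, genes called were 23 in class 4 minus class 2 over both genotypes and 63 within TGA. Over both genotypes, adjusted p was 0.0593 for ND5 and 0.0803 for ND4 (limma). For TGA minus WT the block instead paired TGA and WT means of the same number, and 17 genes were called. The labels do not state such a pairing, and 36 same-numbered pairs across genotypes correlated with a median of -0.000437, 0 of them over 0.1.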
